A study of Homo sapiens with 4 samples.

Results

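The genes described here are 9 genes of the NRF2 antioxidant pathway, NFE2L2, KEAP1, GCLC, GCLM, SLC7A11, TXNRD1, SRXN1, NQO1 and HMOX1. They were taken by name, and all 9 were found among the 44591 rows of the deposited gene tables. The tables come from RNA-seq of cells labelled HepG2, an established human liver cancer line, that received either a control siRNA (siNC) or an siRNA (siLINC01186) against LINC01186, a long noncoding RNA that the study calls SALIS. Each group has 2 libraries, numbered replicate 1 and replicate 2. Per the study, these were biological repeats given the same siNC and different siRNAs against SALIS, and the labels do not say which oligo each library received. The labels do not name separate cultures, so the p-values below rest only on the spread between these libraries, which may be technical. With so few libraries, edgeR's test takes much of that spread from all genes together and not from the gene named. In the comparison of replicate numbers nearly all of it was pooled in this way. A small p-value there can stand beside unequal differences of the gene itself. All cells spent 6 h in medium without serum after transfection and 24 h with serum, and no library comes from untransfected cells.

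NRF2, encoded by NFE2L2, is the transcription factor that raises antioxidant and detoxifying genes when a cell meets oxidants or electrophiles. In unstressed cells KEAP1 holds NRF2 and passes it to a CUL3 ubiquitin ligase for destruction, so that NRF2 is controlled mainly at the protein level, which RNA-seq does not measure. Freed NRF2 pairs with a small MAF protein and binds antioxidant response elements, while BACH1 competes for such elements, most strongly at HMOX1. The pathway protects liver cells from drugs and bile acids, and it is often switched on in liver cancer.

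The libraries held between 14968958 and 17297245 counts. For LINC01186, the gene targeted, siNC gave 15 and 14 counts and siLINC01186 gave 12 and 14 (log2 fold change -0.12, standard error 0.53). No fall was detectable at this depth, so every direction below is between libraries as labelled. The study itself reports knockdown of SALIS by qPCR in HepG2 cells. The label HepG2 was set against 8 genes that define hepatocytes and this line (ALB, AFP, APOA1, APOB, TTR, SERPINA1, FGB and TF). None of them passed 2.19 TPM (counts scaled by gene length and by library) in any library. Summed, the 8 genes held 3 and 7 counts in the replicate 1 libraries and 115 and 86 in the replicate 2 libraries. Of the fibrillar collagen genes of fibroblasts, COL1A1 stood between 7.15 and 18.1 TPM, COL1A2 between 2.47 and 3.21 and COL3A1 between 3.49 and 5.77. PTPRC of blood and PECAM1 of endothelium did not pass 0.031 and 0.21 TPM. The marker genes therefore go against the label, and the libraries are named below by their labels only. These are bulk samples, in which fewer cells of a type and less RNA per cell cannot be told apart.

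Letters that NRF2 is known to recognise were looked up first. The core antioxidant response element TGACNNNGC was searched on both strands in the RefSeq promoters of GRCh38.p14, each running from 250 bases before to 50 after a start site. Of the 9 genes, 7 matched an entry by symbol, with 10 windows in all, and HMOX1 and SLC7A11 had none. The element occurred in 4 of the 10 windows, which belong to KEAP1, GCLM and TXNRD1, and in 13.3% of all 35116 windows. The matches of the 3 genes follow because they show the letters found and where they lie. Each is written along the gene's strand with the element in capitals, and GC first means that the element lies on the opposite strand.
KEAP1, chr19:10502807-10502835, minus strand: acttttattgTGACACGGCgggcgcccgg
KEAP1, chr19:10502784-10502812, minus strand: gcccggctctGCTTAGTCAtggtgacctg
GCLM, chr1:93909446-93909474, minus strand: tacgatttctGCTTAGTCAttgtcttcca
TXNRD1, chr12:104215670-104215698, plus strand: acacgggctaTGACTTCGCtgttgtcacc
TXNRD1, chr12:104215761-104215789, plus strand: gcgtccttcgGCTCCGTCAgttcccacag
TXNRD1, chr12:104286920-104286948, plus strand: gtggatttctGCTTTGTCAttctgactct
The KEAP1 and GCLM promoters shared the same 9 letters on the opposite strand, GCTTAGTCA, from base -31 to -23 before the KEAP1 start and from -34 to -26 before the GCLM start. No match in the other windows says only that these letters are not in them. A match is a description and not a measured binding site, since no binding was measured in these libraries.

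The order of the baseline levels was taken from the deposited TPM of the siNC libraries, since levels of different genes can be compared only per length. TXNRD1, the cytosolic thioredoxin reductase, and NQO1, the quinone reductase used as the classical readout of NRF2, were the highest. TXNRD1 had 176 and 174 TPM in siNC replicates 1 and 2, and NQO1 had 171 and 173 TPM. The pair differed in mean by little, at 175 ± 1.67 and 172 ± 1.21 TPM (SD, n = 2), and both lay above 97% of the genes with any TPM. SRXN1, sulfiredoxin, which repairs over-oxidised peroxiredoxins, came next with 70.0 and 63.0 TPM.

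**Figure D1:**
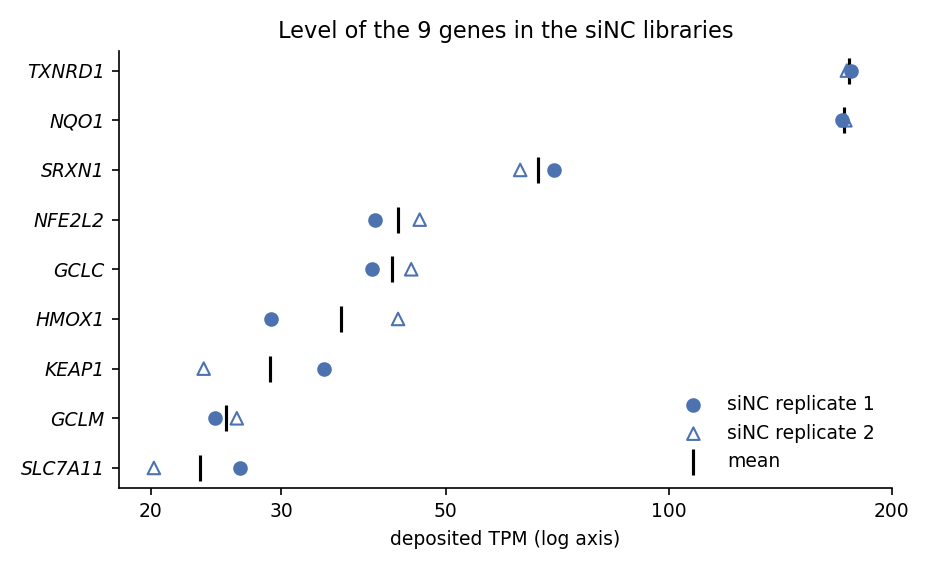
Deposited TPM on a log axis for each of the 9 genes in siNC replicate 1 (filled circle) and siNC replicate 2 (open triangle), with a bar at the mean of both. TXNRD1 and NQO1 lie near 170 TPM, SRXN1 follows at 66.5 TPM, and the other 6 genes lie between 20.2 and 46.1 TPM with overlapping ranges between neighbours.

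Below SRXN1 the neighbours in the order overlapped. NFE2L2 had 40.2 and 46.1 TPM, and GCLC, the catalytic subunit of the enzyme that limits glutathione synthesis, had 39.8 and 44.9 TPM. HMOX1, heme oxygenase 1, had 29.1 and 43.1 TPM, the widest spread of the 9 genes in siNC, with an SD of 9.93 TPM. KEAP1 followed with 34.3 and 23.6 TPM. GCLM, the modifier subunit that partners GCLC, had 24.4 and 26.1 TPM, and SLC7A11, the cystine carrier of system xc-, had 26.4 and 20.2 TPM. From NFE2L2 to SLC7A11 each gene overlapped its neighbour in the order, while NFE2L2 and GCLC lay above KEAP1, GCLM and SLC7A11 in both libraries, and HMOX1 lay above GCLM and SLC7A11. GCLC transcripts outnumbered those of GCLM by 1.63 and 1.72 in siNC and by 1.59 and 2.03 in siLINC01186, per length. KEAP1 transcripts stood at 0.853 and 0.511 of the NFE2L2 level in siNC and at 0.759 and 0.642 in siLINC01186.

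The study compared siLINC01186 with siNC to find genes that respond to the long noncoding RNA. No change of any of the 9 genes was called between the groups by edgeR's quasi-likelihood test, fitted by group alone. At an adjusted p under 0.05 it called 0 of 9, against 0% of the 23942 genes tested. This fit has no term for the replicate number. With that number in the model, edgeR called 83 genes higher and 195 lower in siLINC01186, none of them a member. DESeq2 called 1 gene, not a member. By group alone, no member had an unadjusted p under 0.05 either, against 289 genes or 1.21%. None passed the limits the study used (a log2 fold change beyond 1 with an unadjusted p under 0.05), against 0.756%. The log2 fold changes, siLINC01186 over siNC, ran from -0.24 for HMOX1 to 0.15 for SLC7A11, with a median of 0.07 beside 0.00 over all genes tested. Their standard errors lay between 0.18 and 0.32, so in this fit by group alone each change was smaller than its error. The fitted sign turned with 1 library left out for 8 of the 9 genes. Such a fit leaves the replicate numbers uneven between the groups, so the replicate difference enters the group value. The turns therefore do not show that a sign rested on 1 library. Of these genes, GCLC, TXNRD1 and HMOX1 kept 1 sign within both replicate numbers on the CPM scale. Without siLINC01186 replicate 1, SLC7A11 stood at -0.38, SRXN1 at -0.21, KEAP1 at -0.12, TXNRD1 at -0.014 and HMOX1 at 0.13. Without siNC replicate 2, these were -0.04, -0.01 and -0.20 for SLC7A11, SRXN1 and KEAP1 and 0.06 for HMOX1, and the signs of NFE2L2 and GCLM turned there and without siLINC01186 replicate 2, as did that of GCLC without the latter library. NQO1 kept its sign without any 1 library.

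By role, the 2 regulators came first. NFE2L2 had 66.4 and 75.3 CPM (counts scaled by library only, with TMM factors, but not by gene length) in siNC replicates 1 and 2 and 71.9 and 68.1 CPM in the siLINC01186 libraries, a log2 fold change of -0.02 with a standard error of 0.18. The siLINC01186 libraries lay inside the range of the siNC libraries. KEAP1 had 42.7 and 28.99 CPM in siNC and 41.2 and 33.0 CPM in siLINC01186, a log2 fold change of 0.05 with a standard error of 0.24. Here too both siLINC01186 libraries fell between the siNC libraries.

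**Figure D2:**
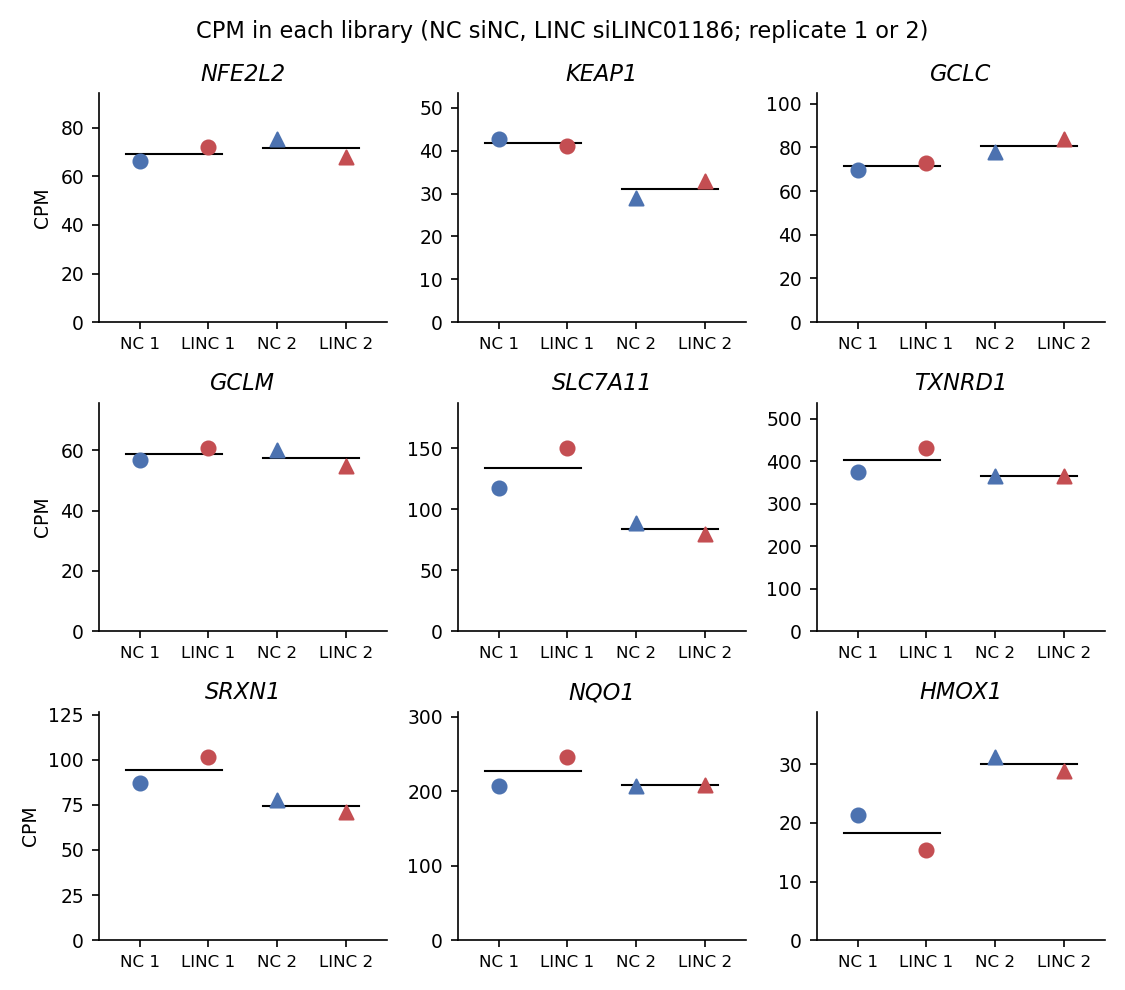
CPM of each of the 9 genes, 1 panel a gene with the axis from 0, in siNC (blue) and siLINC01186 (red) libraries of replicate 1 (circles) and replicate 2 (triangles), with a line at the mean of each replicate number. KEAP1, SLC7A11 and SRXN1 lie lower and HMOX1 higher in both replicate 2 libraries, while the colours separate only for NQO1, and there by less than 1 CPM at the nearest points.

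The glutathione genes gave no common direction. GCLC had 69.9 and 78.0 CPM in siNC and 72.7 and 83.8 CPM in siLINC01186, with a log2 fold change of 0.08 (standard error 0.19). GCLM had 56.8 and 60.1 CPM in siNC and 60.7 and 54.6 CPM in siLINC01186, with a log2 fold change of -0.02. SLC7A11, which brings in the cystine for glutathione, had 117 and 88.7 CPM in siNC and 150 and 79.3 CPM in siLINC01186. Its siLINC01186 libraries were the highest and the lowest of the 4, and its log2 fold change of 0.15 carried a standard error of 0.29.

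Of the thioredoxin genes, TXNRD1 had 375 and 365 CPM in siNC and 431 and 366 CPM in siLINC01186, and SRXN1 had 87.1 and 77.4 CPM in siNC and 101 and 71.0 CPM in siLINC01186. In both genes the highest library was siLINC01186 replicate 1. HMOX1, which breaks down heme, had 21.3 and 31.2 CPM in siNC and 15.4 and 28.8 CPM in siLINC01186, with siLINC01186 replicate 1 the lowest library. The fitted value of -0.24 (log2) had an error of 0.32.

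NQO1 was the only member whose groups did not overlap. It had 207.8 and 207.3 CPM in siNC replicates 1 and 2 (208 ± 0.346 CPM, SD, n = 2) and 245.7 and 208.4 CPM in siLINC01186 replicates 1 and 2 (227 ± 26.4 CPM, SD, n = 2). Only siLINC01186 replicate 1 stood apart, the other 3 libraries lying within 2 CPM of each other, and the log2 fold change of 0.13 had a standard error of 0.18. Of all genes tested, 26% did not overlap between these groups, 13.6% with siLINC01186 the higher. NQO1 alone, 1 of 9, is a smaller share than that background.

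Within each replicate number there is 1 library a group, and these differences have no test. In replicate 1 the log2 CPM difference, siLINC01186 minus siNC, was largest for HMOX1 at -0.47 and for SLC7A11 at 0.35, followed by NQO1 at 0.24, SRXN1 at 0.22 and TXNRD1 at 0.20. As ratios, siLINC01186 replicate 1 had 0.722 times the HMOX1 rate of siNC replicate 1 (95% exact interval 0.608 to 0.857) and 1.28 times the SLC7A11 rate (1.20 to 1.36). These intervals cover counting error only. In replicate 2 the same ratios were 0.923 (0.814 to 1.05) and 0.894 (0.830 to 0.963), so SLC7A11 was on the other side of 1 there. Whether the 2 pairs differ was not tested, since a group by replicate term leaves no residual degrees of freedom.

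**Figure D3:**
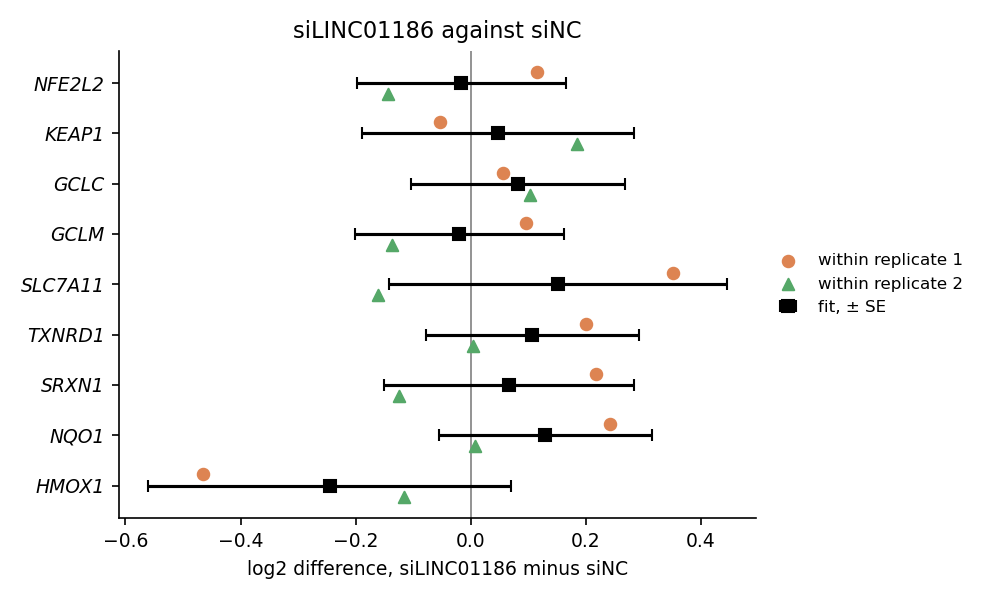
Log2 difference, siLINC01186 minus siNC, of each of the 9 genes, with the fit over 4 libraries and its standard error (square, bar) and the differences within replicate 1 (circle) and replicate 2 (triangle). Each fitted value lies within 1 standard error of 0, and 5 genes have their circle and triangle on opposite sides of 0. The points are on the CPM scale, and on the deposited TPM scale 8 circles and 7 triangles would lie below 0.

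No member moved beyond 0.5 on the log2 CPM scale within either replicate number, where 2.36% of genes with an average of 10 CPM or more did so in replicate 1 and 6.55% in replicate 2. On the log2(TPM + 1) scale HMOX1 did pass it in replicate 1, at -0.69 on the deposited TPM and -0.50 with the microRNA gene MIR6087 left out. The sign was the same in both replicate numbers for 4 of the 9 genes, against 58.4% of those genes. On the CPM scale GCLC, TXNRD1 and NQO1 were higher in the siLINC01186 library of both pairs and HMOX1 lower, whereas on the deposited TPM scale TXNRD1 and NQO1 were lower in both pairs and GCLC in replicate 1. TXNRD1 and NQO1 differed by 0.01 or less in replicate 2 by CPM. MIR6087, a microRNA gene, took 13.8% of the deposited TPM in siLINC01186 replicate 1 and 1.16% in siNC replicate 1. On the log2(TPM + 1) scale the median gene of 10 CPM or more therefore moved by -0.24 in replicate 1, and 8 of the 9 genes were below 0 there, against 2 of 9 on the CPM scale. Relative to the median gene, 7 of the 9 genes were higher in replicate 1 on both scales and 4 of the 9 in replicate 2. With MIR6087 left out of the TPM, a scale added after the data were seen, 7 were above 0 in replicate 1.

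The comparison of replicate 2 with replicate 1, over both transfections, gave larger differences. It was fitted with the group in the model, and it compares the replicate numbers of the labels, which are separate repeats and, in the siLINC01186 libraries, separate oligos that cannot be told apart from the repeat. HMOX1 rose in replicate 2 and SLC7A11, KEAP1 and SRXN1 fell, 4 of 9 genes at an adjusted p under 0.05 in edgeR's quasi-likelihood test. The background is high, at 17.5% of all genes and 29.5% of genes with 10 CPM or more, of which 9.89% were higher and 19.6% lower in replicate 2. No member passed a log2 fold change beyond 1 with an unadjusted p under 0.05, against 4.81% of all genes. The libraries of replicate 1 and replicate 2 did not overlap for 6 of 9 genes, against 52.6% of all genes and 62.6% of those with 10 CPM or more.

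HMOX1 had 21.3 and 15.4 CPM in the replicate 1 libraries (siNC, then siLINC01186) and 31.2 and 28.8 CPM in replicate 2. Both replicate 2 libraries lay above both replicate 1 libraries, whatever the transfection. Replicate 2 stood 1.65-fold higher, a log2 fold change of 0.72 ± 0.15 (standard error; adjusted p = 3.20e-05, edgeR's quasi-likelihood test). It was 0.55 within the siNC libraries and 0.90 within the siLINC01186 libraries on the log2 CPM scale.

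SLC7A11 went the other way, with 117 and 150 CPM in replicate 1 and 88.7 and 79.3 CPM in replicate 2. It fell by 0.66 on the log2 scale with a standard error of 0.12, and replicate 1 stood 1.58-fold higher (adjusted p = 6.56e-07, edgeR's quasi-likelihood test). Only 313 of the 10180 genes with 10 CPM or more had a lower log2 fold change, and only 237 had a higher one than HMOX1. The fall was 0.40 in siNC and 0.92 in siLINC01186. Within each library, HMOX1 transcripts per SLC7A11 transcript (TPM over TPM) numbered 1.10 and 0.624 in replicate 1 and 2.14 and 2.20 in replicate 2. The pair was chosen after the values were seen, because each gene already separated the replicate numbers in its own direction, so the ratio restates those differences.

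KEAP1, the negative regulator, had 42.7 and 41.2 CPM in replicate 1 and 28.99 and 33.0 CPM in replicate 2. On the log2 scale it fell by 0.44 ± 0.14 (standard error; adjusted p = 0.0116 in edgeR's quasi-likelihood test). NFE2L2 itself had a log2 fold change of 0.05 with a standard error of 0.12, and its libraries overlapped. SRXN1 had 87.1 and 101 CPM in replicate 1 and 77.4 and 71.0 CPM in replicate 2, and it fell by 0.34 with a standard error of 0.12 (adjusted p = 0.0294). Its libraries did not overlap either.

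**Figure D4:**
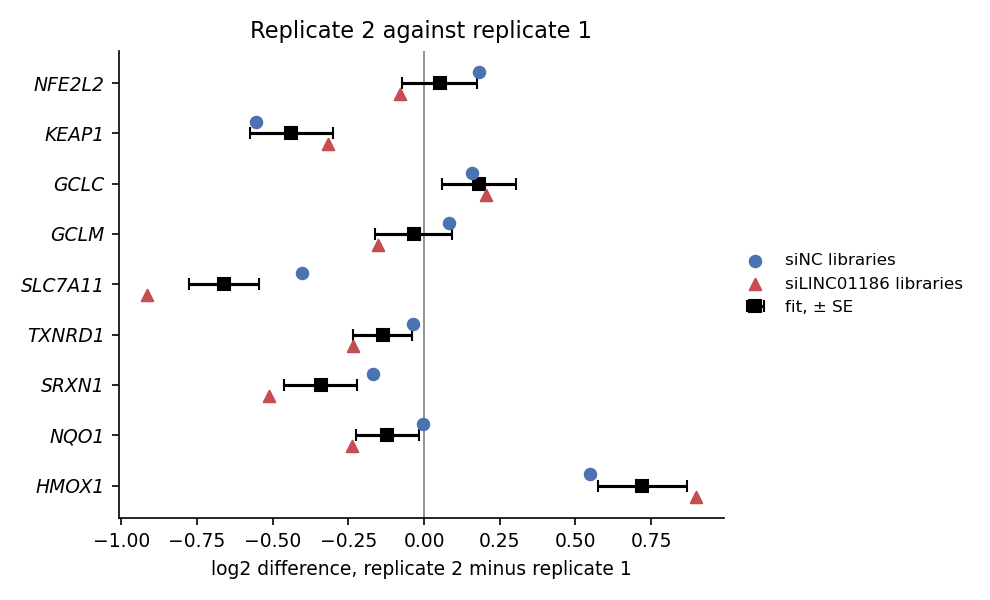
Log2 difference, replicate 2 minus replicate 1, of each of the 9 genes, with the fit over 4 libraries and its standard error (square, bar) and the differences between the siNC libraries (blue circle) and between the siLINC01186 libraries (red triangle). SLC7A11 at -0.66, KEAP1 at -0.44 and SRXN1 at -0.34 lie left of 0 and HMOX1 at 0.72 lies right, with both points on the same side in these 4 genes.

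The other 5 genes did not pass the test between the replicate numbers. The log2 fold changes were 0.18 for GCLC, -0.03 for GCLM, -0.14 for TXNRD1 and -0.12 for NQO1. GCLC and TXNRD1 libraries did not overlap between the numbers, while those of GCLM and NQO1 did. The most abundant of the 9, the thioredoxin and quinone reductases, stayed at nearly equal levels in each library, with TPM ratios of TXNRD1 to NQO1 between 1.00 and 1.03.

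With 1 library left out, the group term has to be dropped too, and dropping it alone left SLC7A11 (adjusted p = 0.00727, edgeR's quasi-likelihood test) and HMOX1 (adjusted p = 0.0164) called but not KEAP1 (adjusted p = 0.0652) or SRXN1 (adjusted p = 0.113). Without siLINC01186 replicate 1 as well, the log2 fold change was -0.48 for SLC7A11 (adjusted p = 0.102, edgeR's quasi-likelihood test), 0.49 for HMOX1 (adjusted p = 0.201), -0.46 for KEAP1 (adjusted p = 0.196) and -0.23 for SRXN1 (adjusted p = 0.573), and no member was called. SLC7A11 and HMOX1 were called without any 1 of the other 3 libraries in the same fit, and by DESeq2 on all 4. KEAP1 was also not called without siNC replicate 1 (adjusted p = 0.266) or siNC replicate 2 (adjusted p = 0.177), and SRXN1 without siNC replicate 1 (adjusted p = 0.140) or siLINC01186 replicate 2 (adjusted p = 0.179), all by the same edgeR test. DESeq2 called neither, at adjusted p = 0.214 for KEAP1 and 0.269 for SRXN1.

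The hepatocyte genes moved with the replicate numbers too. Of the 8 genes, 7 were higher in both replicate 2 libraries, with a summed level of 0.136 and 0.365 TPM in replicate 1 and 5.73 and 4.70 TPM in replicate 2. Of 5 genes of blood, endothelium and fibroblasts, 3 did so, with sums of 16.9 and 13.2 TPM and of 27.1 and 21.5 TPM. Of all genes tested, 52.6% did not overlap between the replicate numbers in either direction by CPM. The share higher in replicate 2 by TPM was not taken, so these marker counts have no like background. The hepatocyte genes were near the floor, with at most 27 counts for a gene in any library. ALB, APOA1 and TTR were at 0 in both replicate 1 libraries. Their part in the HMOX1, SLC7A11, KEAP1 and SRXN1 differences was not tested.

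Other genes of the pathway were read as 3 lists, all of whose genes were tested. Among 10 partners and regulators of NRF2, 0 passed edgeR's test between siLINC01186 and siNC by group alone. Between the replicate numbers 0 rose and 4 fell, against 9.89% higher and 19.6% lower among genes with 10 CPM or more. Those 4 were MAFF and MAFK, small MAF partners, SQSTM1, the autophagy receptor that can draw KEAP1 away from NRF2, and NFE2L1, a relative of NRF2. MAFF had 19.9 and 22.3 CPM in replicate 1 and 14.7 and 9.06 CPM in replicate 2, a log2 fold change of -0.86 with a standard error of 0.16. SQSTM1 had 672 and 843 CPM in replicate 1 and 571 and 531 CPM in replicate 2, a log2 fold change of -0.45. MAFG and BACH1, with log2 fold changes of 0.17 and 0.04, did not pass the test. The list had a median of -0.22 between the replicate numbers, beside 0.02 over all genes tested and -0.07 over genes with 10 CPM or more.

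Against siNC the same list had a median of -0.04. SQSTM1 and RBX1, the RING subunit of the CUL3 ligase, were at 0.15 and 0.13, and MAFF and CUL3 at -0.15 and -0.12, none of which passed the test.

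Among 28 other NRF2 targets, 9 rose and 1 fell between the replicate numbers at an adjusted p under 0.05. These 10 of 28 stand beside 17.5% of all genes and 29.5% of genes with 10 CPM or more. At 10 CPM or more, 9.89% were higher and 19.6% lower. The median log2 fold change was 0.13, beside 0.02 over all genes and -0.07 over genes with 10 CPM or more. AKR1C2, an aldo-keto reductase, had 21.7 and 37.9 CPM in replicate 1 and 42.9 and 69.0 CPM in replicate 2, a log2 fold change of 0.92 with a standard error of 0.14. Its close relatives AKR1C1 and AKR1C3 can share its reads, so its level is uncertain. AKR1C3, BLVRB (biliverdin reductase B), IDH1, PIR, ABHD4, ABCC3, TRIM16L and ALDH3A1 also rose, by log2 fold changes between 0.41 and 0.76. FTH1, the ferritin heavy chain, which stores iron of the kind HMOX1 frees from heme, was the gene that fell. It had 5044 and 6188 CPM in replicate 1 and 4964 and 3338 CPM in replicate 2, a log2 fold change of -0.46 with a standard error of 0.07, and its pseudogenes can share reads. AKR1B10 and OSGIN1, at 0.89 and -0.30, did not pass.

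**Figure D5:**
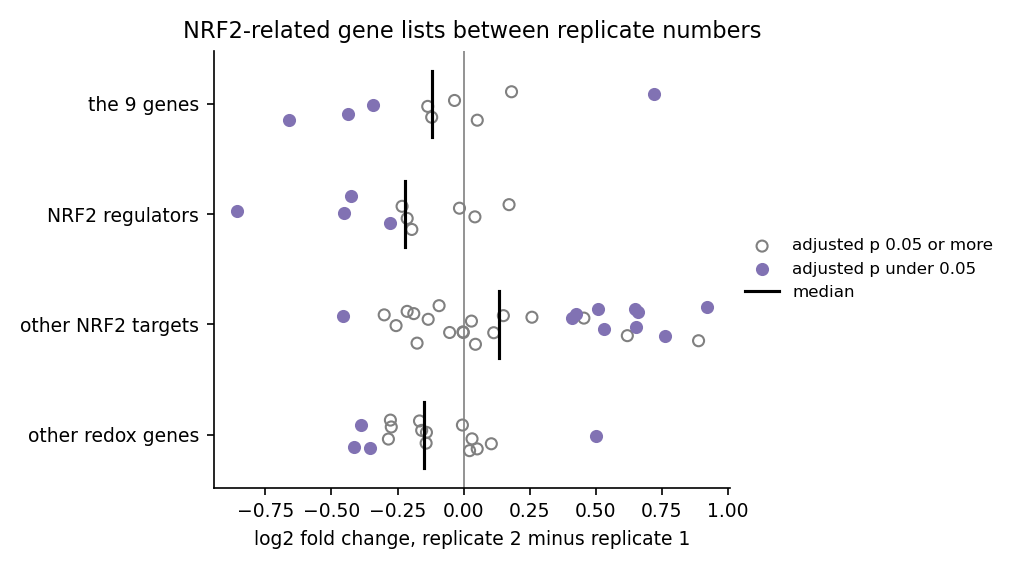
Log2 fold change, replicate 2 minus replicate 1, of each gene of the 9 and of 3 further lists, 1 row a list with points spread vertically for legibility, filled where the adjusted p is under 0.05, and a bar at each median. The medians are -0.12, -0.22, 0.13 and -0.15 from top to bottom, and the called genes of the 28 other NRF2 targets lie right of 0 but for FTH1.

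Against siNC the 28 targets had a median log2 fold change of 0.18, beside 0.00 over all genes tested. By group alone, 0 passed the adjusted test. That fit leaves the replicate difference in its error, and the lists were not read with the replicate number in the model. It therefore does not show that these targets were unchanged. AKR1C2 and AKR1C1 were at 0.73 and 0.61, and the transporters ABCC2 and ABCC3 at -0.20 and -0.20. ME1, malic enzyme, which makes NADPH, was the 1 gene with an unadjusted p under 0.05, at 29.01 and 27.8 CPM in siNC and 38.3 and 39.7 CPM in siLINC01186 (log2 fold change 0.46, standard error 0.19, adjusted p = 1.00 by edgeR's quasi-likelihood test), and it is named after its value was seen. Of the 28 genes, 8 lay higher in both siLINC01186 libraries than in both siNC libraries and 2 lay lower. Over all genes, 13.6% lay higher and 26% did not overlap in either direction. An unadjusted p under 0.05 was held by 1.21% of all genes in edgeR's quasi-likelihood test.

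The siRNA strands were compared with the transcripts, because an siRNA can also lower transcripts that pair with bases 2 to 8 of either strand. The 2 oligos of the study are shown with those bases in capitals, first as printed by the study and then as the reverse complement.
siSALIS_01, as printed: aGGGCTCTattgggcaaaaa
siSALIS_01, reverse complement: tTTTTGCCcaatagagccct
siSALIS_02, as printed: cTAAGTGActcactgcatc
siSALIS_02, reverse complement: gATGCAGTgagtcacttag
In the longest 3′UTR of each gene in GENCODE release 29, the sites of siSALIS_02, TCACTTA and ACTGCAT, occurred in 12.1% and 13.5% of 14806 tested genes. SLC7A11, whose 3′UTR of 7859 nt was the longest of the 9, held 1 of each, and SRXN1 held 1 TCACTTA. The sites of siSALIS_01, AGAGCCC and GGCAAAA, occurred in 13.1% and 14.0% of genes. AGAGCCC was found in NFE2L2, TXNRD1 and SRXN1, and GGCAAAA in KEAP1 and SLC7A11. GCLC, GCLM, NQO1 and HMOX1 held none. Since the labels do not give the oligo of each library, the differences within the replicate numbers were not compared by site.

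The positions of the tables are those of hg19, the build of the submitters' processing notes, and some members share their span with other genes. NFE2L2, on chromosome 2 from 178095031 to 178129859, overlaps an antisense gene with 73 counts over the 4 libraries beside its own 4566. SLC7A11, on chromosome 4 from 139085248 to 139163503, overlaps SLC7A11-AS1 with 242 counts beside 6950. TXNRD1, on chromosome 12 from 104609557 to 104744085, overlaps EID3 with 270 counts and an antisense gene with 204 beside 24830, and NQO1, on chromosome 16 from 69743304 to 69760571, overlaps an antisense gene with 169 beside 14040. The sources do not say if strand was used in counting, so reads of a gene and its antisense partner cannot be told apart, and the partners' counts were small beside those of the members. KEAP1, on chromosome 19 from 10596796 to 10614054, and GCLC, on chromosome 6 from 53362139 to 53409927, overlap genes with 10 and 17 counts, and GCLM lies on chromosome 1 from 94350755 to 94375154. HMOX1, on chromosome 22 from 35777060 to 35790207, and SRXN1, on chromosome 20 from 627259 to 634014, overlap no other row.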

How the data were processed

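The authors deposited, for each library, a raw read count per gene and a TPM value (the count divided by gene length and scaled to 1 common sum), which was recomputed from the counts within 2.91e-05. The submitters' processing notes name HISAT2, TopHat2, Bowtie2, HISAT and hg19 without roles, and the counting program is not given in the sources used here. Poly(A) RNA was sequenced as paired ends.

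Counts were analysed with edgeR 4.0.16 in R 4.3.3. Genes with at least 5 counts in total were kept, scaled by TMM and tested by quasi-likelihood, by group alone for siLINC01186 against siNC, and with replicate number and group for replicate 2 against 1. P-values were adjusted (Benjamini-Hochberg) over 23942 genes. Standard errors were taken as the fold change (log2) over the root of F, and 2 was the prior count of log2 CPM. The alternatives were DESeq2 1.42.0, its size factors, other count filters, the replicate block, left-out libraries and other scalings. On simulated counts with 200 genes changed by 2 (log2), the group test recovered 98.5% over 23103 genes and the replicate test 96.5% over 23074. Of the unchanged genes, 1 and 9 were called. The counts for the group test held no replicate difference, unlike the data. The shares therefore do not give the power of that test here or for smaller changes.

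The members and lists were chosen with earlier results of these data known. Named were the 9 genes, LINC01186 and, per list and comparison, the 2 largest rises and falls among genes with at least 100 counts in total; other genes named were chosen after their values were seen. Sequences came from RefSeq (GRCh38.p14), GENCODE 29 and the study's oligo list. Intervals at 95% are exact binomial.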

Additional observations from a re-analysis of the deposited data

How the results depend on the processing

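Between siLINC01186 and siNC no member was called under any alternative run, while the count over all genes moved from 0 higher and 0 lower to 83 and 195 with the replicate number as a block (replicate block), to 1 and 0 with DESeq2 and to 4 and 1 with genes of at least 1 count kept. With the replicate block the members' standard errors lay between 0.098 and 0.15. In that fit HMOX1 (-0.28, standard error 0.15), NQO1 (0.12, 0.10) and TXNRD1 (0.10, 0.098) exceeded theirs. They had adjusted p = 0.632, 0.899 and 0.932 by edgeR's quasi-likelihood test. The labels share numbers, not a stated batch. Across genes, the deviations from the group mean correlated at 0.678 between libraries of 1 number, and the first principal component, with 67.9% of the variance, split replicate 1 from replicate 2. Leaving out 1 library gave 0 to 6 higher. Genes past log2 1 with an unadjusted p under 0.05, 111 higher and 70 lower, numbered 15 and 12 with DESeq2, 32 and 14 with edgeR's filterByExpr, and 81 to 282 and 93 to 201 with 1 library left out. Of the members' log2 fold changes, 8 changed sign with a library left out, where the replicate difference enters the group value. The ranges were -0.10 to 0.081 for NFE2L2, -0.20 to 0.35 for KEAP1, -0.030 to 0.18 for GCLC and -0.10 to 0.049 for GCLM. They were -0.38 to 0.53 for SLC7A11, -0.014 to 0.21 for TXNRD1, -0.21 to 0.29 for SRXN1 and -0.77 to 0.13 for HMOX1.

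Between replicate 2 and replicate 1, the 1905 higher and 2286 lower calls became 1064 and 1094 without the group term, 313 and 616 with DESeq2, 1299 and 1455 with filterByExpr, and 653 to 1577 and 641 to 1755 with 1 library left out, where the group term was dropped too and the lone library of a number was taken to vary like the pair. Past log2 1, DESeq2 gave 354 higher and 125 lower in place of 829 and 323. Of the members, 1 higher and 3 lower became 1 and 1 without the group term and with DESeq2, and 0 to 1 and 0 to 2 with 1 library left out. With 1 library left out, the sign changed for NFE2L2 (-0.0043 to 0.12), GCLM (-0.081 to 0.029) and NQO1 (-0.24 to 0.00091), none of them called. The cause of these shifts was not tested. The limits are 2 libraries a group, no detectable fall of the targeted gene at 12 to 15 counts, and hepatocyte markers against the label. A further limit is that repeat and oligo cannot be told apart in the replicate numbers. The depth of 14968958 counts or more left at least 220 counts for each member.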

Other observations

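A list of 16 further genes that handle glutathione, thioredoxin and peroxide, not counted among the NRF2 targets, had a median log2 fold change of 0.07 between siLINC01186 and siNC and of -0.15 between replicate 2 and replicate 1. None passed edgeR's test by group alone, where GPX4 and TXN2 were at 0.26 and 0.25 and PRDX3 and SOD2 at -0.20 and -0.16. Between the replicate numbers 1 rose and 3 fell at an adjusted p under 0.05, 4 of 16 against 29.5% of all genes with 10 CPM or more. CAT, catalase, which breaks down hydrogen peroxide, rose, with 34.7 and 38.3 CPM in replicate 1 and 46.9 and 56.6 CPM in replicate 2 (log2 fold change 0.50, standard error 0.13). TXNRD2, the mitochondrial thioredoxin reductase, fell by 0.41 on the log2 scale with a standard error of 0.12, and MGST1, a membrane glutathione transferase, fell by 0.39. SLC3A2, the heavy chain that carries SLC7A11 to the cell surface, also fell, with 379 and 481 CPM in replicate 1 and 341 and 327 CPM in replicate 2 (log2 fold change -0.35), and its highest library was siLINC01186 replicate 1, as for SLC7A11. PRDX5, at 0.10, did not pass.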
